A study of Citrus maxima with 6 samples.

Results

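NAC transcription factors are plant proteins that share a DNA-binding NAC domain at their amino end. The 98 genes described here were all genes of the annotated gene table of the series, out of 30123, whose name contained "NAC domain", "NAC (No Apical Meristem)", "NAC-like" or "NAC transcription". The rule used only names, not expression values. RNA from ripe pulp (sarcocarp, the juice-filled flesh of the fruit) was sequenced in 6 libraries, of which 3 came from the red cultivar, Citrus maxima Merr. var. Tubtim Siam, and 3 from the white cultivar, Citrus maxima (Burm.) Osbeck. Both cultivars were grown in orchards and neither was treated. Each library was a biological repeat made from the mixed pulp of several healthy ripe fruits. Each color was represented by 1 cultivar, so color, genotype and growing conditions cannot be told apart.

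In plants, NAC factors act in the formation of organ boundaries, in root cap and vascular development, in responses to drought and abscisic acid (ABA), in leaf senescence and in fruit ripening, where NOR of tomato is the best known member. Several are made as membrane-bound precursors, which are released and enter the nucleus when the endoplasmic reticulum, the mitochondria or the cell as a whole is under stress. Pomelo genes were described by their best hit in Arabidopsis, as the annotation table gives it, and each role below is that of the Arabidopsis protein unless another species is named. A best hit gives a likely relative, and not a tested function in pomelo.

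Expression was measured as FPKM, the fragments mapped to a gene scaled to transcript length and to the number of mapped fragments, so that levels can be compared between genes. The FPKM values of a library summed to between 812335 and 835575, and between 15920 and 16250 genes were above 0. Pearson's r of log2 values across genes was 0.958 to 0.964 within a cultivar and 0.833 to 0.855 between cultivars, where genes are not independent replicates. A gene was tested when its mean FPKM reached 1 in at least 1 cultivar, which 14158 genes did. Genes were called at 2 levels with limma and Benjamini-Hochberg adjustment over all 14158 genes: past both thresholds of the study (an absolute log2 fold change of at least 2 and an adjusted p of at most 0.01), or past the adjusted p alone. All fold changes are red over white on log2(FPKM + 0.1), with the standard error (SE) of the fit, and the scale understates changes of low genes.

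The NAC RNA of ripe pulp came mostly from few genes of the family. Of the 98 genes, 39 were listed at 0 FPKM in all 6 libraries (39.8%, against 39.5% of all genes), though the authors' mean normalized count was above 0 for 2 of them, 18 were above 0 but below the filter, and 41 were tested (41.8%, against 47.0% of all genes). The summed FPKM of the family was 2199.55, 2288.83 and 2195.15 in red replicates 1 to 3 and 1676.87, 2039.47 and 1991.01 in white replicates 1 to 3. The 3 red sums lay above the 3 white sums. They made up 0.270% ± 0.00611 of all FPKM in red and 0.233% ± 0.0254 in white (SD, n = 3). The 5 most abundant NAC genes carried 56.3% of the family's mean FPKM and the top 10 carried 78.2%. A mean of 100 FPKM over all libraries was reached by 6 genes, 50 by 13 and 10 by 23.

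**Figure D1:**
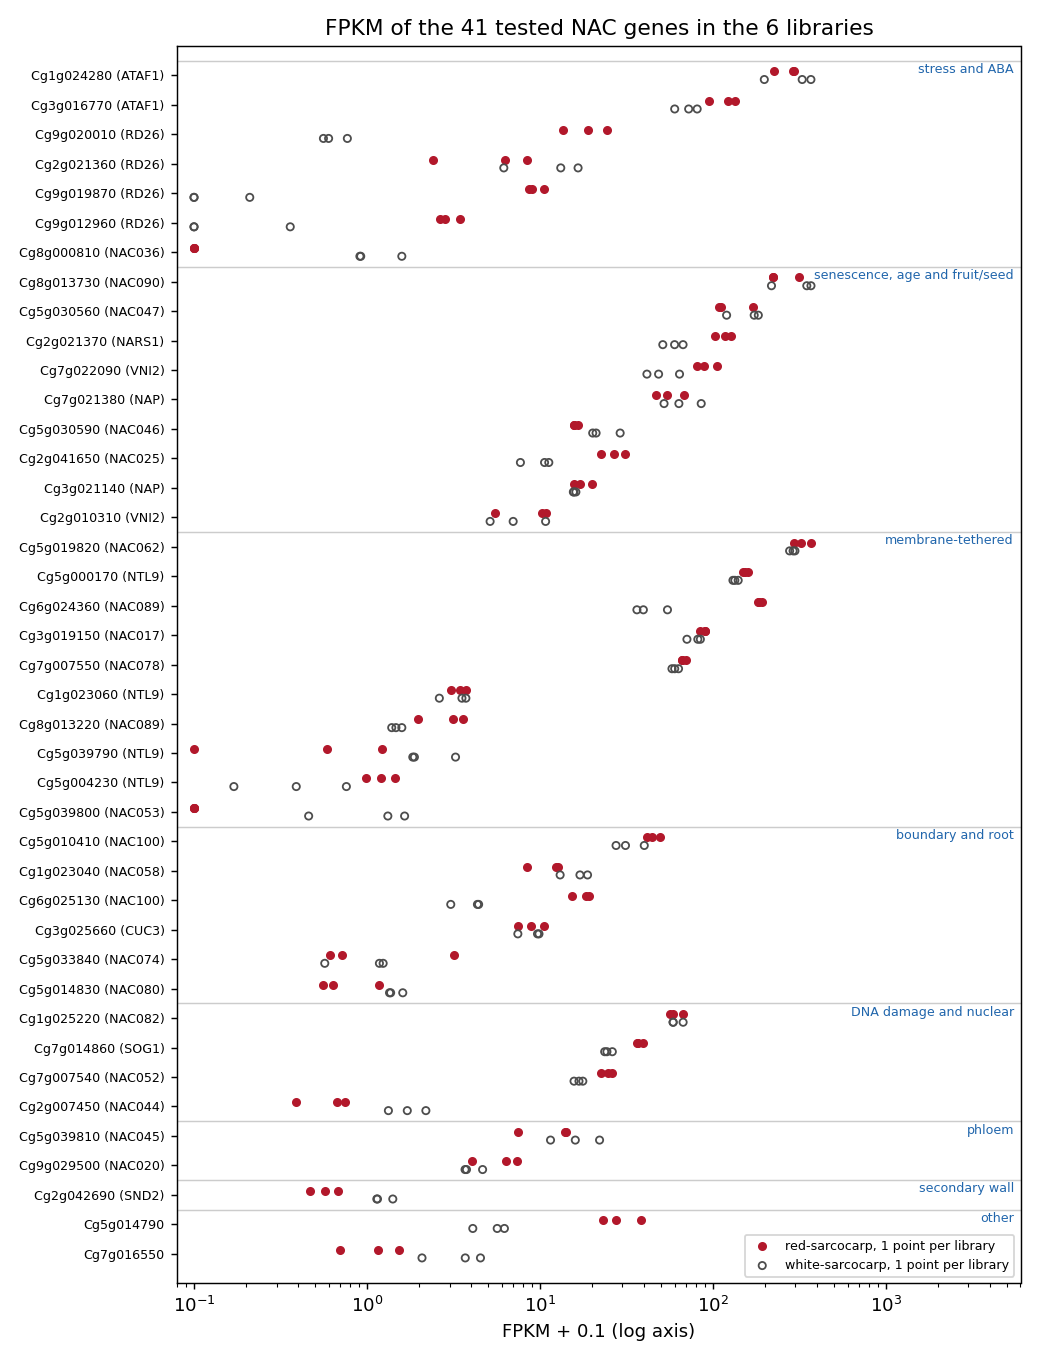
FPKM + 0.1 on a log axis for each of the 41 tested NAC genes, 1 point per library, filled for red-sarcocarp and open for white-sarcocarp pomelo, grouped by the role of the best Arabidopsis hit; points at 0.1 are libraries listed at 0. Levels spread from 0 to 368.74 FPKM, and the libraries of the cultivars are separated in 26 of the 41 genes.

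Among the tested NAC genes more were higher than lower in red pulp. Past both thresholds, 6 were higher (14.6%, against 3.11% of all tested genes) and 2 were lower (4.88%, against 3.65%). Past the adjusted p alone, 12 were higher (29.3%, against 13.4%) and 2 were lower (4.88%, against 14.1%). In either direction 8 of the 41 passed both thresholds (19.5%, against 6.76%) and 14 passed the adjusted p (34.1%, against 27.5%). The remaining 27 did not pass. The median log2 fold change was 0.16, against 0.02 for all tested genes, with 24 positive and 17 negative values. The absolute log2 fold change was below 1 in 26 of the 41 (63.4%, against 79.2% of all tested genes). The libraries of the cultivars did not overlap in 26 of the 41 (63.4%, against 57.7%), 17 of them higher and 9 lower in red (29.4% and 28.3% of all tested genes). A gene near 0 in 1 cultivar enters the test only when it is high in the other, and 5 of the 8 genes past both thresholds entered in this way. Among the 30 NAC genes with a mean of at least 1 FPKM in both cultivars, 3 passed both thresholds (10%), against 380 of 12742 such genes (2.98%). The 6 higher calls held whichever library was left out, whereas the 2 lower calls became 1 without any of red replicates 1 to 3 or white replicates 1 and 2, and 0 without white replicate 3.

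**Figure D2:**
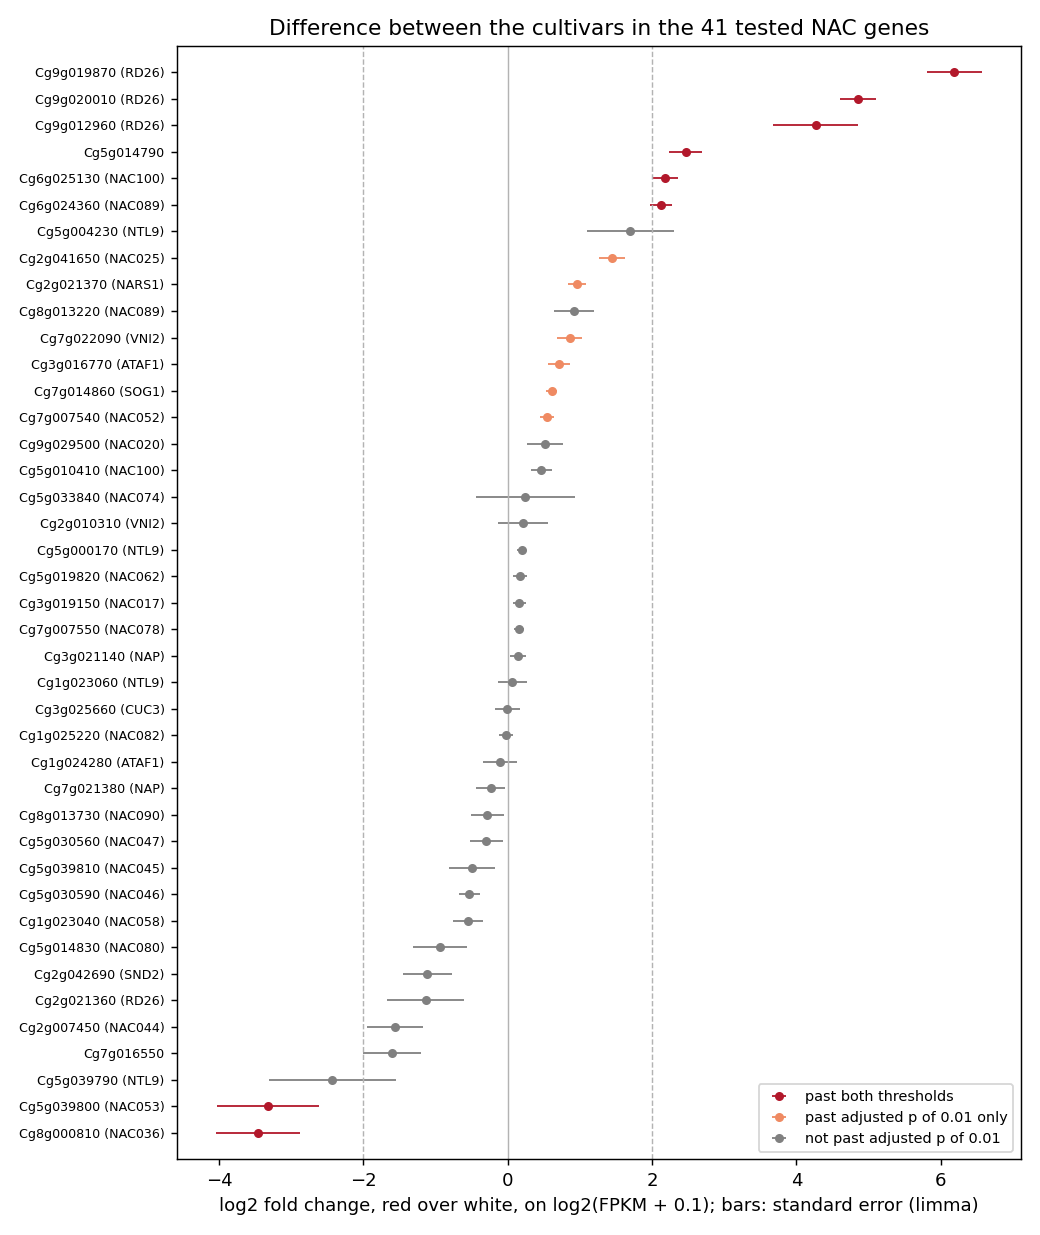
Log2 fold change, red over white, with its standard error for the 41 tested NAC genes in order of size; dashed lines mark the fold change threshold of 2 in either direction, and color gives the call. The 3 RD26-like genes at the top lie between 4.27 and 6.19, while most genes lie between -1 and 1; the 2 lowest genes are listed at 0 in red, so their size depends on the pseudocount.

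By the role of the best hit, the 98 genes fell into 8 groups, and 41 tested members were unevenly spread over them. All 10 genes of the membrane-tethered group and all 4 of the DNA damage and nuclear group were tested, while only 1 of 8 secondary wall genes and 2 of 9 phloem genes were. Of the 21 genes of the stress and ABA group 7 were tested. Past the adjusted p, 4 were higher (57.1%, against 13.4% of all tested genes) and 1 was lower (14.3%, against 14.1%). Of these 5, 4 passed the filter through 1 cultivar only, which selects for a difference. None of the 3 members with a mean of at least 1 FPKM in both cultivars passed both thresholds.

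**Figure D3:**
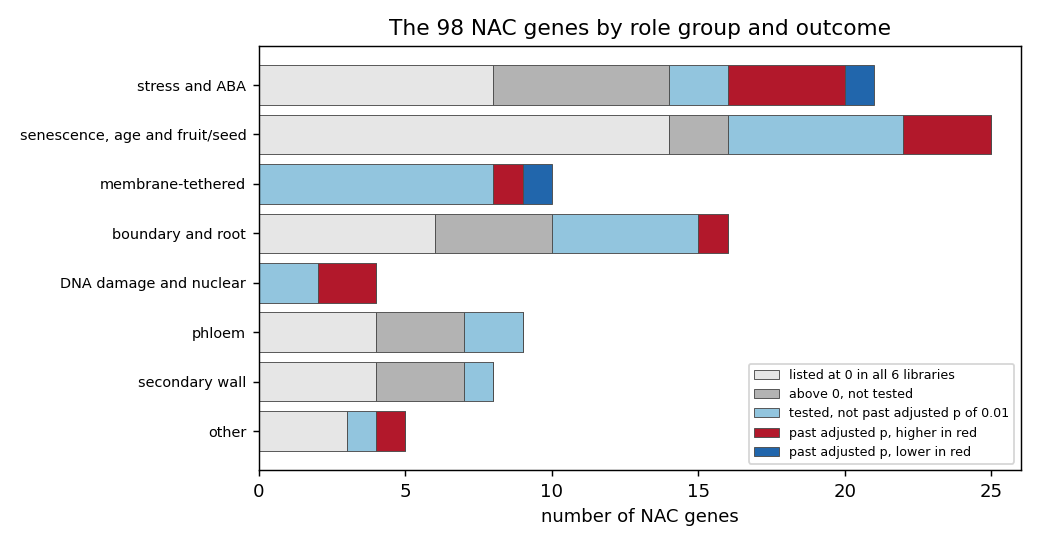
Number of NAC genes in each role group, divided into genes listed at 0 in all libraries, genes above 0 but not tested, tested genes that did not pass an adjusted p of 0.01, and genes that passed it in either direction. The 39 genes listed at 0 are found mainly in the senescence, age and fruit or seed group (14) and in the stress and ABA group (8).

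The stress and ABA group held the largest rises, all in genes whose best hit is RD26, a transcriptional activator induced by dehydration and ABA. The RD26-like gene Cg9g020010 stood at 18.75, 13.55 and 24.27 FPKM in red replicates 1 to 3 and at 0.5, 0.67 and 0.46 in white replicates 1 to 3. Every red library was thus far above every white one. Its mean was 34.7-fold higher in red, with a log2 fold change of 4.85 (SE 0.25, adjusted p = 3.42e-05, limma).

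A second RD26-like gene, Cg9g019870, stood at 8.52, 8.9 and 10.44 FPKM in red and at 0.11, 0 and 0 in white. It was nearly absent from white pulp, and its log2 fold change of 6.19 (SE 0.38, adjusted p = 6.49e-05) therefore depends on the pseudocount: it was 8.66 with a pseudocount of 0.01 and 3.31 with 1, and passed both thresholds with each. The third, Cg9g012960, stood at 2.74, 2.53 and 3.35 FPKM in red and at 0, 0 and 0.26 in white (log2 fold change 4.27, SE 0.59, adjusted p = 0.00139). Its difference was 1.84 with a pseudocount of 1, which is under the fold change threshold. For Cg9g012960 the authors' table gave a mean normalized count of 0 beside these FPKM values, so its level is uncertain.

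RD26 was the best hit of 10 NAC genes, more than any other Arabidopsis gene, and only 3 of the copies passed the thresholds. The most abundant copy in white pulp, Cg2g021360, stood at 6.21, 8.34 and 2.3 FPKM in red and at 6.08, 13.09 and 16.51 in white. Its libraries overlapped between the cultivars, and it did not pass the test (log2 fold change -1.14, SE 0.53, adjusted p = 0.122). Cg5g035340, below the filter, was listed at 0, 0 and 0.18 in red and at 0.43, 0.25 and 1.42 in white, a separation in the opposite direction to the 3 copies that rose. Its authors' mean normalized count was only 0.37, so its level and this separation are uncertain. Of the remaining 5 copies, 2 (Cg9g012940 and Cg9g012980) were at 0 in all libraries and 3 (Cg2g003660, Cg9g019890 and Cg9g019940) were listed at 0 in red and at no more than 0.45 in any white library. The differences between copies were not tested against each other.

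The 3 copies that rose carry gene identifiers of chromosome 9, where 4 more of the 10 do. Reads of closely similar copies can be assigned to one or another of them, and the sequences of the copies were not used here, so the split between them is uncertain. The authors' mean normalized count was 9.69 per unit of FPKM for Cg9g020010 and 10.3 for Cg9g019870, against a median of 31.0 and a 5th to 95th percentile range of 7.39 to 80.9 over all tested genes. This ratio depends on transcript length and on how reads were counted, and their parts in it were not tested.

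**Figure D4:**
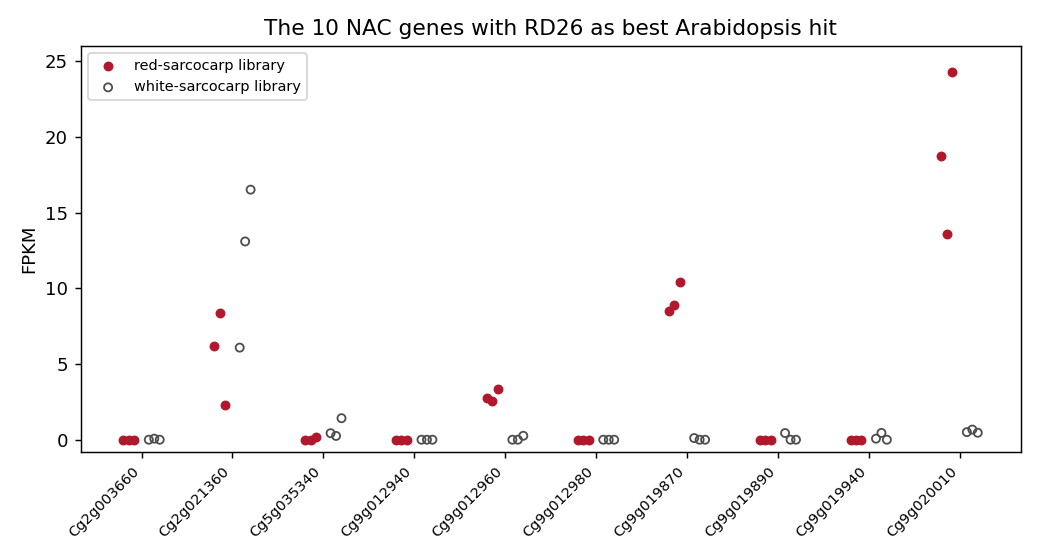
FPKM in each library for the 10 NAC genes whose best Arabidopsis hit is RD26, filled points for red-sarcocarp and open points for white-sarcocarp pomelo. Cg9g012960, Cg9g019870 and Cg9g020010 are above 2 FPKM in every red library and below 1 in every white one, whereas Cg2g021360 is between 2.3 and 16.51 FPKM in all 6.

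ATAF1, a stress-induced NAC factor that promotes ABA synthesis and leaf senescence, was the best hit of 3 genes, 2 of which were among the 10 most abundant of the family. Cg3g016770 stood at 121.54, 133.31 and 95.37 FPKM in red and at 60.01, 80.97 and 72.3 in white. The lowest red library was above the highest white one, and the mean was 1.64-fold higher in red (log2 fold change 0.71, SE 0.16, adjusted p = 0.00934). This call was close to the threshold: without red replicate 1 or 2 or white replicate 1, 2 or 3 the adjusted p was between 0.014 and 0.0391. The other ATAF1-like gene, Cg1g024280, was more abundant, at 289.22, 295.42 and 224.54 FPKM in red and 198.07, 368.42 and 327.99 in white. Its white libraries spanned the red ones, and its log2 fold change was -0.11 (SE 0.24, adjusted p = 0.737). It turned positive without red replicate 3 (0.02) or white replicate 2 (0.071). The third copy, Cg9g028920, was listed at 0 throughout.

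The gene of this group that fell was NAC036-like Cg8g000810, whose Arabidopsis relative reduces leaf and stem growth when overexpressed. In red it was at 0 in each library, and it was at 0.81, 0.82 and 1.49 FPKM in white. The groups did not overlap, but the white level was close to the filter (log2 scale difference -3.46, SE 0.59, adjusted p = 0.00324). Without white replicate 2 the adjusted p was 0.0116, with a replicate block it was 0.0184, and without white replicate 3 the gene was below the filter and not tested. With pseudocounts of 0.5 and 1 the difference was -1.59 and -1.01, under the fold change threshold. Of the ATAF2, NAC032, NAC035 and NAC055 relatives in this group, which act in defense, stress or flowering time, none reached the filter.

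The membrane-tethered group had a summed level of 821.43, 792.31 and 878.79 FPKM in red and 618.26, 601.44 and 622.85 in white, without overlap. Most of that difference lay in NAC089-like Cg6g024360. NAC089 is held at the endoplasmic reticulum and moves to the nucleus under stress of that compartment, where it promotes programmed cell death. Cg6g024360 stood at 183.14, 184.81 and 192.81 FPKM in red and at 54.5, 39.51 and 36.25 in white. The red libraries were close to each other and all far above the white ones. The mean was 4.3-fold higher in red (log2 fold change 2.13, SE 0.15, adjusted p = 0.000107), and it passed both thresholds in each of 17 alternatives. Its authors' mean normalized count of 928 came to 8.05 per unit of FPKM, low among all tested genes. The second NAC089-like gene, Cg8g013220, stood at 3.06, 3.47 and 1.86 FPKM in red and at 1.49, 1.29 and 1.37 in white, which did not overlap and did not pass the test (0.92, SE 0.28, adjusted p = 0.0311).

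The other abundant membrane-tethered genes differed little between the cultivars. NAC062 is released from the plasma membrane in the cold and under stress of the endoplasmic reticulum, and its relative Cg5g019820 was the most abundant NAC gene of the pulp. It stood at 320.79, 292.73 and 367.31 FPKM in red and at 290.64, 277.43 and 297.74 in white, which overlapped (log2 fold change 0.17, SE 0.10, adjusted p = 0.19). NTL9 is a calmodulin-binding repressor of defense genes, and its relative Cg5g000170 stood at 159.4, 149.51 and 152.75 FPKM in red and at 130.44, 133.77 and 139.86 in white. These did not overlap, but the difference was small and did not pass (0.19, SE 0.07, adjusted p = 0.0562). NAC017, which signals from stressed mitochondria to the nucleus, had the relative Cg3g019150 at 84.33, 90.03 and 90.04 FPKM in red and 70.64, 84.48 and 81.69 in white, with overlapping libraries (0.16, SE 0.09, adjusted p = 0.176).

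NAC053 and NAC078 act together on proteasome genes when proteasome activity is short. The NAC053-like gene Cg5g039800 was at 0 in each red library and at 1.55, 0.36 and 1.22 FPKM in white, and fell past both thresholds (log2 scale difference -3.32, SE 0.71, adjusted p = 0.00844). Of the 14 alternatives in which the gene was tested, 7 lost this call, among them leaving out red replicate 1, 2 or 3, with adjusted p between 0.016 and 0.0218, and without white replicate 1 or 3 it was not tested. The NAC078-like gene Cg7g007550, far more abundant, stood at 65.72, 66.29 and 69.59 FPKM in red and at 63.16, 60.01 and 57.87 in white, a small difference without overlap that did not pass (0.16, SE 0.07, adjusted p = 0.115). Of the 3 further NTL9-like genes, none passed the test: Cg1g023060 was between 2.52 and 3.63 FPKM in all libraries, Cg5g004230 was higher in every red library (log2 fold change 1.70, SE 0.60, adjusted p = 0.0546) and Cg5g039790 was lower in every red library (-2.43, SE 0.88, adjusted p = 0.0577).

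The group of senescence, age and fruit or seed factors had 25 members, of which 14 were at 0 throughout and 9 were tested. Of these 3 rose past the adjusted p (33.3%, against 13.4% of all tested genes), none past both thresholds, and none fell. NARS1-like Cg2g021370 stood at 117.41, 127.27 and 102.34 FPKM in red and at 51.21, 67.08 and 59.93 in white. NARS1 acts in the seed coat during embryo growth. Each red library was above each white one, with a 1.95-fold higher mean (log2 fold change 0.96, SE 0.13, adjusted p = 0.00109). NAC025-like Cg2g041650, whose Arabidopsis relative is expressed in the endosperm of the seed, stood at 26.84, 30.77 and 22.39 FPKM in red and at 10.53, 11.15 and 7.61 in white. It was 2.73-fold higher in red without overlap (1.45, SE 0.18, adjusted p = 0.00091). Both calls held in each of 17 alternatives.

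VNI2, which represses xylem vessel formation and delays leaf aging, was the best hit of 4 genes. Cg7g022090 stood at 89.19, 105.65 and 81.16 FPKM in red and at 48.41, 64 and 41.43 in white. The groups did not overlap, and the mean was 1.79-fold higher in red (0.86, SE 0.17, adjusted p = 0.00656). Without red replicate 1, 2 or 3 or white replicate 1 or 3 the adjusted p was between 0.0104 and 0.0249. The second tested copy, Cg2g010310, was between 5.05 and 10.78 FPKM in all libraries and did not pass (adjusted p = 0.633), and the other 2 were at 0.

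The most abundant genes of this group did not pass the test. NAC090, which holds back salicylic acid-driven senescence, had the relative Cg8g013730 at 221.84, 223.64 and 312.52 FPKM in red and 217.94, 348.73 and 368.74 in white (log2 fold change -0.28, SE 0.23, adjusted p = 0.338). NAC047, which acts in the leaf response to ethylene, had the relative Cg5g030560 at 111.11, 171.21 and 107.76 FPKM in red and 173.11, 182.88 and 119.86 in white (-0.30, SE 0.22, adjusted p = 0.316). In both genes the cultivars overlapped, and the libraries within a cultivar were widely spread. NAP, an activator of leaf senescence through ABA, was the best hit of 9 genes, of which 6 were at 0 and 2 were tested: Cg7g021380 (mean 56.3 FPKM in red and 67.0 in white) and Cg3g021140 (17.5 and 15.7), neither of which passed. NAC046, an activator of chlorophyll breakdown, had the relative Cg5g030590 at 15.72, 15.66 and 16.39 FPKM in red and 21.01, 20.08 and 28.98 in white, lower in every red library but not past the adjusted p of 0.01 (-0.53, SE 0.15, adjusted p = 0.0231).

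Among boundary and root factors, 16 genes of which 6 were tested, a single gene passed (16.7%, against 27.5% of all tested genes past the adjusted p). NAC100 belongs to the clade whose mRNAs are cut under the guidance of the microRNA miR164. NAC100-like Cg6g025130 stood at 19.15, 18.29 and 15.31 FPKM in red and at 4.25, 4.32 and 2.95 in white. All red libraries were well above all white ones, and the mean was 4.58-fold higher in red (log2 fold change 2.18, SE 0.18, adjusted p = 0.000192). With a pseudocount of 1 the difference was 1.95, just under the threshold. The second NAC100-like gene, Cg5g010410, was more abundant, at 44.24, 41.51 and 49.02 FPKM in red and 27.44, 31.12 and 39.99 in white, and did not pass (0.46, SE 0.15, adjusted p = 0.0368). The copies therefore stood at 17.6 against 3.84 FPKM and at 44.9 against 32.8 FPKM in red and white. The relative of CUC3, which sets organ boundaries, had the same mean level in both cultivars (Cg3g025660, 8.88 and 8.9 FPKM, adjusted p = 0.98). CUC2, SMB and BRN2 relatives, which act in boundaries and in the root cap, were at 0 in all libraries. NAC080-like Cg5g014800, below the filter, stood at 0.64, 0.7 and 0.53 FPKM in red and 0.08, 0.15 and 0.45 in white.

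Of the 4 DNA damage and nuclear factors, 2 rose past the adjusted p (50%, against 13.4% of all tested genes), both by less than 2-fold. SOG1 is the master regulator of the plant response to DNA damage, and its relative Cg7g014860 stood at 36.94, 36.51 and 39.43 FPKM in red and at 26.1, 23.57 and 24.29 in white. The libraries within each cultivar were close, and the mean was 1.53-fold higher in red (log2 fold change 0.61, SE 0.08, adjusted p = 0.00119), which held in each of 17 alternatives. NAC052 works with a histone demethylase in gene repression, and its relative Cg7g007540 stood at 26.11, 24.53 and 22.29 FPKM in red and at 15.64, 17.59 and 16.71 in white. It was 1.46-fold higher without overlap (0.54, SE 0.10, adjusted p = 0.00416). Without red replicate 1 or 2 or any of the 3 white replicates its adjusted p was between 0.0115 and 0.0215. NAC044, which arrests the cell cycle after DNA damage under the control of SOG1, had a relative that was lower in every red library, Cg2g007450, at a mean of 0.503 FPKM in red and 1.64 in white (-1.56, SE 0.39, adjusted p = 0.0156, not past the threshold). NAC082, a factor of the nucleolar stress response, had the relative Cg1g025220 at 60.6 and 61.6 FPKM (adjusted p = 0.864).

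Among the 5 genes with no role assigned, Cg5g014790 rose past both thresholds. Its best hit AT1G02250 is itself a NAC gene with no function given in the annotation. It stood at 23.01, 38.07 and 27.57 FPKM in red and at 5.56, 3.99 and 6.13 in white. The lowest red library was well above the highest white one, and the mean was 5.65-fold higher (log2 fold change 2.47, SE 0.23, adjusted p = 0.000282), in each of 17 alternatives past both thresholds. Its authors' mean normalized count of 147 came to 8.47 per unit of FPKM, against a median of 31.0 over all tested genes. The reason for this low ratio was not tested. Cg7g016550 was lower in every red library, at means of 1.03 and 3.34 FPKM, but did not pass (-1.60, SE 0.40, adjusted p = 0.0162).

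Few phloem and secondary wall factors were tested. NAC045 drives the loss of the nucleus in sieve elements, and of its 6 relatives only Cg5g039810 was tested, at 14.12, 13.87 and 7.34 FPKM in red and 11.41, 15.91 and 22.01 in white, with overlap (-0.49, SE 0.32, adjusted p = 0.248). NAC020, which acts in early phloem development, had the relative Cg9g029500 at 3.92, 7.31 and 6.27 FPKM in red and 3.59, 3.66 and 4.56 in white, also with overlap (0.52, SE 0.25, adjusted p = 0.128). The secondary wall switches NST1 and SND1 and the repressor of xylem formation XND1 had 5 relatives, of which 4 were at 0 and 1, Cg5g040070, was no higher than 0.26 FPKM. SND2, an activator of cellulose synthesis genes in fibers, had the relative Cg2g042690 at 0.47, 0.58 and 0.37 FPKM in red and 1.31, 1.04 and 1.05 in white, lower in every red library and not past the threshold (-1.11, SE 0.34, adjusted p = 0.0337).

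By consecutive gene identifiers, 22 of the 98 genes stood in 10 runs of NAC neighbors. Most neighbors of a called gene had a difference of the same sign, and of those tested none passed. Cg2g021370 (NARS1) rose while the next identifier below it, RD26-like Cg2g021360, had a negative fold change. The 3 genes from Cg5g039790 to Cg5g039810 (NTL9, NAC053 and NAC045) all had negative fold changes, and only Cg5g039800 passed. Cg7g007540 (NAC052) rose, and Cg7g007550 (NAC078), also higher in every red library, did not pass. Cg5g014790 rose, and Cg5g014800, which was below the filter, was also higher in every red library. The difference between neighbors was not tested.

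The name rule left out 17 genes that are called NAC by other wording or whose best Arabidopsis hit is a NAC gene. They were mainly relatives of NTL8, NAC014 and the VND xylem vessel factors. Of these 6 were tested, 1 passed the adjusted p (16.7%, against 27.5% of all tested genes) and 0 passed both thresholds. NAC014-like Cg1g023070, another membrane-tethered type, stood at 14.94, 16.7 and 10.03 FPKM in red and 6.27, 6.36 and 5.23 in white, without overlap (log2 fold change 1.18, SE 0.20, adjusted p = 0.00345). The relatives of VND7, the switch for xylem vessels, were not tested.

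Genes known from Arabidopsis as targets or regulators of NAC factors, with proteasome genes taken by annotated name, were followed in 7 lists. These held 125 genes in all, of which 74 were tested. Past the adjusted p, 6 were higher in red (8.11%, against 13.4% of all tested genes) and 14 were lower (18.9%, against 14.1%). Past both thresholds 2 were higher (2.7%, against 3.11%) and 4 lower (5.41%, against 3.65%), shares near those of all tested genes. All 6 of these passed the filter through 1 cultivar only, which selects for a difference. Of the 65 listed genes with a mean of at least 1 FPKM in both cultivars, 0 passed both thresholds (against 2.98% of all such genes). The median log2 fold change was -0.12 against 0.02. Without red replicate 1 the counts were 2 higher and 6 lower, without red replicate 2 they were 2 and 13, without white replicate 1 they were 3 and 10, and without white replicate 2 or 3 they were 4 and 8. All of these genes came from the same 6 libraries as the NAC genes, and no link between a NAC gene and a listed gene was tested.

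In the ABA list, 3 of 8 tested genes passed (37.5%, against 27.5% of all tested genes). The relative of CYP707A2, an enzyme that breaks down ABA, fell from 8.52, 11.51 and 11.78 FPKM in white to 0.29, 0 and 0.62 in red (Cg8g022720, log2 fold change -5.12, adjusted p = 0.00113). A more abundant relative, CYP707A3-like Cg6g020290, was lower in every red library but did not pass (85.5 FPKM in red and 147 in white, adjusted p = 0.0132, limma). The relative of AAO3, which makes ABA in the last step of its synthesis, fell from a mean of 5.19 to 2.74 FPKM (Cg8g011320, -0.89, adjusted p = 0.00317). ERD1, a chloroplast protease gene whose promoter is bound by RD26 and its relatives under drought, had the relative Cg7g011740, which rose from 2.08, 2.22 and 3.59 FPKM in white to 7.38, 7.34 and 6.03 in red (1.40, adjusted p = 0.00301). The NCED5 relative, the rate-limiting step of ABA synthesis, did not pass (Cg2g044950, 6.34 and 7.3 FPKM, adjusted p = 0.447).

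In the senescence and chlorophyll breakdown list, 2 of 6 tested genes fell, with 14.1% of all tested genes past the adjusted p in that direction, and the others did not pass. SGR1 removes magnesium from chlorophyll, and its relative Cg5g009510 stood at 10.68, 15.25 and 9.98 FPKM in red and 31.76, 35.7 and 19.21 in white (-1.24, adjusted p = 0.0078). RCCR, a later enzyme of the same pathway, had the relative Cg1g002690 at means of 28.3 and 47.4 FPKM (-0.74, adjusted p = 0.00173). PAO and NYC1 relatives did not pass.

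In the secondary wall list 9 of 30 genes were tested, with 1 higher and 3 lower (44.4% in either direction, against 27.5% of all tested genes, and all 3 of those past both thresholds through 1 cultivar only). Relatives of the cellulose synthase CESA7 (Cg4g023980, 0.03 against 1.18 FPKM, adjusted p = 0.00362), the xylan synthesis gene IRX9 (Cg6g002620, 0.137 against 1.65, adjusted p = 0.00973) and the wall protein COBL4 (Cg5g011690, 1.93 against 6.08, adjusted p = 0.00163) fell, whereas the relative of the lignin regulator MYB58 rose (Cg9g028980, 3.68 against 0.523, adjusted p = 0.00471). All were at low levels.

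In the list of mitochondrial stress genes, 4 of 9 tested genes passed (44.4%, against 27.5% of all tested genes), 2 higher and 2 lower. Relatives of AOX1A (Cg3g009340, 7.77 FPKM in red and 8.75 in white, adjusted p = 0.69, limma) and NDB2 (Cg2g041270, 19.1 and 23.3, adjusted p = 0.256) did not pass. AOX1D, an alternative oxidase, had the relative Cg3g009350 at 3.24, 6.98 and 3.07 FPKM in red, and it was listed at 0 in all white libraries (adjusted p = 0.000213). Of the BCS1 relatives, named for a mitochondrial ATPase, Cg8g007660 fell (0.0667 against 4.02 FPKM, adjusted p = 0.000392) and Cg8g007690 rose (9.8 against 2.77, adjusted p = 0.000293). The small heat shock protein relative HSP23.5 fell from a mean of 834 to 348 FPKM (Cg9g023970, -1.26, adjusted p = 0.000363). In the list of endoplasmic reticulum stress genes, 1 of 10 tested genes passed (10%, against 27.5% of all tested genes). It was the GRP94 chaperone relative, which fell (Cg3g024200, 141 against 211 FPKM, adjusted p = 0.000925). The proteasome list was taken by annotated name, so it can hold genes that are not part of the proteasome. Of its 23 tested genes 1 rose and 4 fell (21.7%, against 27.5%), all by less than 1 on the log2 scale. Among the 9 tested regulators of NAC proteins, which include EIN2, EIN3, RCD1 and TPL relatives, 1 passed (11.1%, against 27.5%). It was the relative of RHA2A, a ubiquitin ligase of ABA signaling, which rose (Cg2g034380, 7.71 against 3.36 FPKM, adjusted p = 0.00223).

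**Figure D5:**
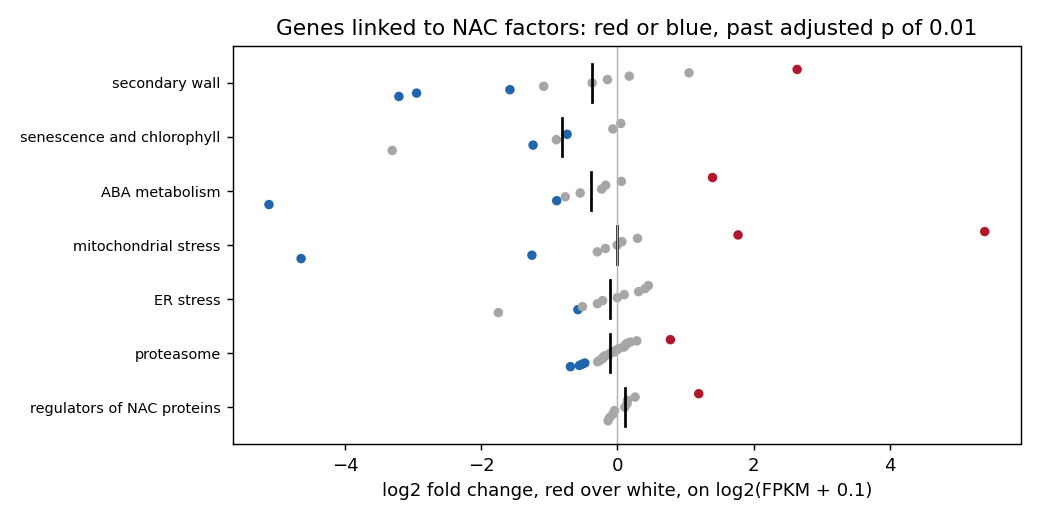
Log2 fold change, red over white, of the 74 tested genes in 7 lists of targets and regulators of NAC factors, 1 point per gene, red or blue where the adjusted p was at most 0.01, with a vertical bar at each list's median. The medians lie between -0.82 and 0.11, and the farthest points are CYP707A2-like (-5.12) and AOX1D-like (5.40). These genes are at or near 0 in red and in white, respectively, so their size depends on the pseudocount.

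Bulk pulp holds several tissues, and fewer cells of a type and less RNA per cell cannot be told apart. Seed markers moved with the cultivars: the summed FPKM of 10 genes was 64.45 to 123.07 in red and 20.47 to 37.4 in white, with 2 genes at 0 in all red and 6 at 0 in all white libraries. The cruciferin relatives Cg9g008230 and Cg9g008240, defining seed storage proteins, were at 10.56 and 12.27 FPKM in red replicate 3, at 1.47 to 2.96 in the other red libraries and at no more than 0.19 in white. Most of the seed sum in every library was EM6-like Cg7g002130, a protein of late seed maturation, at 59.05 to 95.27 FPKM in red and 20.38 to 36.86 in white. The seed list thus stood higher in red, as did NARS1-like Cg2g021370 and NAC025-like Cg2g041650. Within red, these NAC genes were lowest in replicate 3. The 3 RD26-like genes that rose and Cg6g024360 were highest in red replicate 3. Of the other higher calls past both thresholds, Cg6g025130 was lowest in red replicate 3 (15.31 FPKM) and Cg5g014790 was highest in red replicate 2 (38.07). The part of seed tissue in the NAC differences was not tested. Vascular markers, 18 genes, summed to 16.18 to 25.04 FPKM in red and 8.71 to 20.47 in white, with 13 at 0 in all red and 6 at 0 in all white libraries. All 18 are also in the secondary wall list above, so the 2 lists are not separate observations. Most of that sum was XCP2-like Cg8g000170 (20.03 and 10.22 FPKM, adjusted p = 0.0487), the only 1 of the 18 with a higher mean in red, while 11 had a lower mean in red and 6 were at 0 throughout. Without it the sum was 0.54 to 1.06 in red and 3.24 to 9.74 in white. Green tissue markers (13 genes) summed to 620.72 to 709.35 in red and 574.82 to 713.26 in white, but the genes differed in direction. Of 10 tested, 2 were higher past the adjusted p (20%, against 13.4% of all tested genes) and 1 was lower (10%, against 14.1%). LHCB1-like Cg2g044410 stood at means of 153.02 FPKM in red and 34.90 in white, and LHCB1-like Cg2g044400 at 249.55 and 462.56. Vacuolar markers of juice sacs (8 genes) summed to 1135.11 to 1239.85 in red and 1104.25 to 1136.18 in white. The vacuolar list was thus abundant as a sum in every library, but no marker that defines sarcocarp as such was used. Of its 6 tested genes, 2 were higher past the adjusted p (33.3%, against 13.4% of all tested genes) and 0 were lower. Of these 2, AHA10-like Cg1g013430 stood at means of 249.6 FPKM in red and 120.17 in white (adjusted p = 0.00574, limma).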

How the data were processed

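The authors sequenced ripe pulp RNA from 3 repeats of each cultivar. Per the labels and the published methods, trimming used Trimmomatic, mapping to the pomelo genome used STAR 2.7.1a, counting used featureCounts 2.0.1, and the deposited FPKM came from RSEM 1.3.1. The strand setting is not given in the sources used here. The mean normalized count over all libraries was deposited by the authors and is used only as their mean; their DESeq2 fold changes and p-values were not used. Columns of other samples numbered 0. FPKM holds no depth, so precision rests on the 3 repeats.

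Genes with a mean of at least 1 FPKM in at least 1 cultivar were tested with limma 3.58.1 in R 4.3.3 (trend, cultivar as the only term, log2(FPKM + 0.1) as the response), and p-values were adjusted over all of them. Fold changes have a pseudocount of 0.1, and the script was tested on simulated data. Named were all NAC genes past either call rule, the 10 most abundant, genes below the filter with separated libraries and a mean of at least 0.5 FPKM in a cultivar, and neighbors of these. Other NAC genes are given to account for copies and role groups, chosen after their values were seen. Members and lists were chosen with earlier results of these data known. Alternatives were other pseudocounts, filters, scalings, variance settings, thresholds, a replicate block, and leaving out each library. No sequence is shown, since none was used here.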

Additional observations from a re-analysis of the deposited data

How the results depend on the processing

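The count of NAC genes higher in red past both thresholds was 4 with a pseudocount of 1 and otherwise 6, or 7 with a log2 fold change of 1, and without 1 library it was always 6. The count past the adjusted p was 9 to 12 without 1 library. The calls lower in red were less stable. Past both thresholds the 2 lower genes became 0 with a pseudocount of 0.5 or 1, with a mean of at least 1 FPKM over all 6 libraries or with a replicate block, 1 with quantile normalization, and 0 to 1 without 1 library. Past the adjusted p alone they became 1 with a pseudocount of 0.5 or 1 or quantile normalization, 0 with the mean over all 6 libraries or the replicate block, 6 at an adjusted p of 0.05, and 0 to 1 without 1 library. Of the listed targets and regulators, 6 higher became 10 at an adjusted p of 0.05 and 2 to 6 without 1 library, and 14 lower became 8 with the replicate block, 23 at an adjusted p of 0.05 and 6 to 13 without 1 library. The filter over all libraries removes genes near 0 in 1 cultivar; the other causes were not tested. ATAF1-like Cg1g024280, at -0.11, reversed to 0.02 without red replicate 3 and 0.071 without white replicate 2, with -0.38 to 0.071 over the fits without 1 library. The replicate numbers do not pair the samples: deviations of same-numbered libraries correlated at 0.000385, 0.0309 and -0.0446. With the replicate block 10 NAC genes passed the adjusted p, all of them among the 14 above. Scaling moved the median of all genes by less than 0.1 (log2). FPKM values of under about 1 are limited by depth, which they do not hold.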
